A study of Homo sapiens with 6 samples.

Results

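The genes EEF1A1, ACTB, GAPDH, FTH1P7, FTH1P10 and FTH1P11 are described here by the ChIP-seq peaks that lay over their gene bodies. The first 3 are transcribed at a high rate in most human cells, and the last 3 are processed copies of the ferritin heavy chain mRNA. A peak was taken as a member's when it shared at least 1 bp with the gene body in hg38, and 11 of the 1743 peaks of the 4 deposited lists did so. The 6 genes are among 58961 annotated on the chromosomes. They were chosen by the peaks, folds and tags of these lists, so which lists hold them, and with how many tags, is a description and carries no test. The smallest overlap with a member was 204 bp, the whole width of the FTH1P11 peak, and the closest peak that lay outside a member was 214018 bp away from GAPDH, in the RPA1 list of replicate 1.

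The cells were 293T, a human embryonic kidney line that takes up plasmids readily. They were transfected with Flag-RBMX or Flag-RPA1 and kept in camptothecin, an inhibitor of topoisomerase I, for 24 hours, and chromatin was precipitated with anti-Flag beads. Both proteins have 2 replicates, so there are 4 peak lists, and all groups carried camptothecin; 2 inputs accompany replicate 2. The vector and the promoter that drove the tagged proteins, and whether the replicates were separate cultures, are not given in the sources used here. RBMX, also called hnRNP G, binds nascent transcripts and takes part in splicing. RPA1 carries the main DNA-binding domains of the RPA complex, which covers DNA strands once they are unpaired.

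EEF1A1 encodes the translation elongation factor that delivers aminoacyl-tRNA to the ribosome, ACTB encodes cytoplasmic beta actin, and GAPDH encodes a glycolytic enzyme. Ferritin heavy chain, encoded by FTH1, forms part of the shell that stores iron. A processed pseudogene arises when an mRNA is reverse transcribed and inserted elsewhere in the genome, so it lacks the introns and usually the promoter of its parent. Such copies resemble one another and the exons of the parent, and how reads that fit several copies were placed is not given in the sources used here. Peaks over the pseudogenes are therefore uncertain as to which copy the reads came from. EEF1A1, ACTB and GAPDH have annotated pseudogenes too, and their peaks may share this limit where they meet exons.

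The libraries of replicate 1 had 20199680 filtered tags for RBMX and 20089972 for RPA1, and their lists give the tags within each peak. The libraries of replicate 2 had 6664290 and 6889249 filtered tags, and their lists give the pileup, the stack of extended tags at the summit, from which whole tags were recovered. The lists hold 258 RBMX and 360 RPA1 peaks in replicate 1, and 598 and 527 in replicate 2. Peak caller, threshold, background, depth and tag length all differ between the replicate numbers and cannot be told apart from the replicate. Tags are compared below only within a replicate number, as tags per 1000000 filtered tags (RPM), and the 95% intervals are exact and cover counting error only.

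EEF1A1 was held by all 4 lists, and it was the only one of the 6 members of which this was so. ACTB and GAPDH were held by both lists of replicate 2 and by neither list of replicate 1. FTH1P7, FTH1P10 and FTH1P11 were held by the RBMX list of replicate 2 alone. Each list thus held 1 peak over the members in replicate 1, and the lists of replicate 2 held 6 for RBMX and 3 for RPA1. Over all annotated genes, an RBMX peak lay on 0.287% in replicate 1 and on 0.190% in replicate 2, and the RPA1 lists covered 0.458% and 0.127% of genes in the same order. Both proteins of replicate 2 had a peak over 3 members and over 0.115% of all genes, and both of replicate 1 over 1 member and 0.0577% of all genes. As a share of the genes with an RBMX peak, those that RPA1 also held were 20.1% of 169 in replicate 1 and 60.7% of 112 in replicate 2. All 4 lists had a peak over 6 genes, or 0.0102%, of which 3 were protein-coding (EEF1A1, COL23A1 and PTPRN2). COL23A1 runs from 178237618 to 178590393 on chromosome 5 and PTPRN2 from 157539056 to 158587823 on chromosome 7. A peak anywhere in the gene body counted, so the lists need not share a site in these long genes. Nothing is read from these shares about the members, since holding a peak was how they were chosen.

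The EEF1A1 peaks lay across the start of the gene. EEF1A1 occupies positions 73515750 to 73521032 of chromosome 6 and is read from its high-coordinate end, per RefSeq. The sequence just before that start is shown because the peaks of all 4 lists run into it. It is chr6:73521033-73521282, on the minus strand, from RefSeq GRCh38.p14, with a TATA-box match in capitals:
EEF1A1: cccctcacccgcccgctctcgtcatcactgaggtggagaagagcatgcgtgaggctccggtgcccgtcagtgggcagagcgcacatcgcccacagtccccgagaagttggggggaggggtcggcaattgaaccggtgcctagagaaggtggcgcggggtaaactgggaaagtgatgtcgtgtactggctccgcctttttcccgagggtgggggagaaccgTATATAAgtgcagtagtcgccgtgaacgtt
The last base printed is the one directly before the first transcribed base. Of these 250 bases, 250 lay within the peak in both lists of replicate 1, and in replicate 2 the RBMX peak held 237 and the RPA1 peak 225. The string TATATAA, searched on both strands, occurred 1 time, starting 30 bases before the gene start, and it was found in 2.42% of 35116 promoter windows of the same length. The string CCGCCC, the core of a GC box, also occurred 1 time, 242 bases before the start and apart from the TATATAA match, and 42.6% of the windows hold it. The GC content of the window was 61.6%, against a median of 58.0% over all windows. These matches are descriptions of the sequence and not of protein binding.

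At EEF1A1 the peaks of both proteins had nearly the same limits in replicate 2. In replicate 1 the RBMX peak was 275 bp wider, mostly before the gene start. In replicate 1 the RBMX peak was 2226 bp wide, from 739 bp before the gene start to 1486 bp inside it. The RPA1 peak of replicate 1 was 1951 bp wide, from 493 bp before the start to 1457 bp inside. In replicate 2 the RBMX peak was 1247 bp wide, from 237 bp before the start to 1009 bp inside, and the RPA1 peak was 1218 bp wide, from 225 bp before to 992 bp inside. The RPA1 peak of replicate 2, at 73520040 to 73521257, lay inside the other 3 and is the stretch common to all lists. The summits of RBMX and RPA1 were 1 bp apart in replicate 1, at 769 and 770 bp inside the gene, and 37 bp apart in replicate 2, at 507 and 544 bp. Between 66.8% and 81.5% of each peak lay in the gene body, and the peaks covered 18.8% to 28.2% of it, all at the 5′ end. The remaining gene body held no peak in any list, and the nearest other peak on the chromosome was 9941271 bp away in RBMX replicate 1 and 83789425 bp away in RBMX replicate 2. Exon and intron limits were not used here. Since the vector is not given, whether the tags came from the chromosomal gene or from matching sequence on a transfected plasmid was not tested, and the tags, ranks and ratios of EEF1A1 below are of reads placed at this gene.

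**Figure D1:**
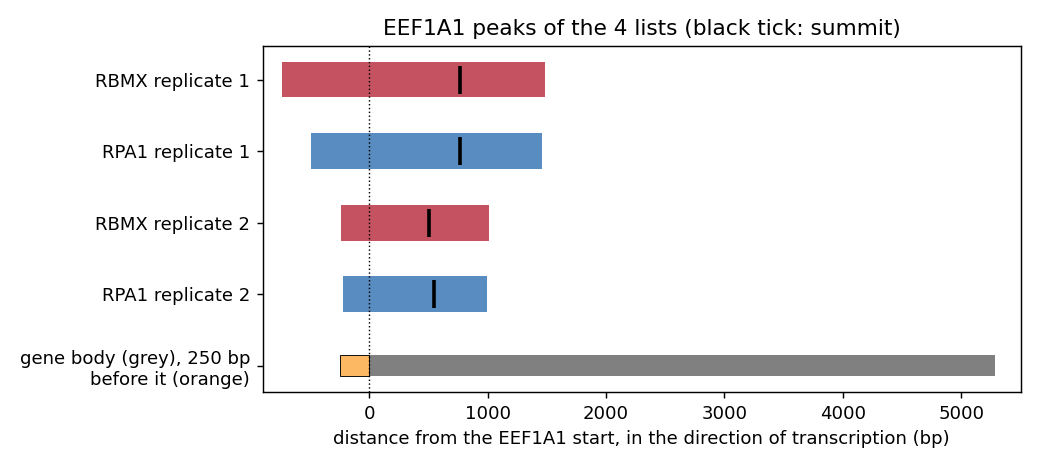
Peaks over EEF1A1 in the 4 lists, with the distance from the gene start in bp on the horizontal axis, positive in the direction of transcription; bars are peaks (red RBMX, blue RPA1), black ticks are summits, grey is the gene body and orange the 250 bp before it. All 4 bars cross the start, the replicate 2 bars are the narrower ones, and none reaches past 1486 bp inside the gene.

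EEF1A1 was also among the tallest peaks of every list. In replicate 1 it held 1480 RBMX tags (95% interval 1406 to 1557) and 910 RPA1 tags (852 to 971). The RBMX value was the highest of that list, ahead of 996 tags, and the RPA1 value was the next after the highest, 1014. These are 51.0 and 30.3 times the median peak of their lists, while the widths were 2.50 and 2.21 times the median. Per kb of peak, 665 RBMX and 466 RPA1 tags were counted, against list medians of 32.6 and 31.6. The deposited folds of 9.92 and 9.16, which are relative to the background around the peak in the precipitated library itself, ranked only 63 of 258 and 79 of 360. By p-value the same peaks ranked 1 and 2.

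In replicate 2 the EEF1A1 summit held 299 RBMX tags (266 to 335) and 244 RPA1 tags (214 to 277). The deposited folds were 195 and 124, relative to a single level for the whole genome, and ranked 3 of 598 and 12 of 527. The median summit of these lists had 26 RBMX and 32 RPA1 tags, so EEF1A1 stood 11.5 and 7.62 times above it. At most 1 tag per position was kept, per the file headers. With strands counted separately and tags extended to 200 bp, a summit can hold at most 400 tags. EEF1A1 was at 74.8% of that ceiling for RBMX and 61.0% for RPA1, and the tallest summits of the lists were at 399 and 398 tags. The ceiling limits how far tall summits can differ.

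ACTB had 1 peak in each list of replicate 2, near an end of the gene body. ACTB occupies positions 5527148 to 5530601 of chromosome 7 and is transcribed from its high-coordinate end, so the peaks lay in the part transcribed last. The RBMX peak, at 5527269 to 5527755, was 487 bp wide and covered 14.1% of the gene body. The RPA1 peak, at 5527336 to 5527614, was 279 bp wide, covered 8.08% and lay inside the RBMX peak. The summits were 251 and 269 bp from the low-coordinate end and 18 bp apart. The RBMX summit held 20 tags (12.2 to 30.9) and the RPA1 summit 19 tags (11.4 to 29.7). Both are low for their lists, with 22.6% of RBMX peaks and 3.04% of RPA1 peaks having a lower fold than the 13.7 and 10.3 of ACTB.

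GAPDH likewise had a peak of both proteins in replicate 2 and none at its promoter. GAPDH occupies positions 6534517 to 6538371 of chromosome 12, and the RefSeq promoter table places its start at 6535264 on the plus strand. The RBMX peak, at 6537622 to 6537975, was 354 bp wide and covered 9.18% of the gene body, and the RPA1 peak, at 6537725 to 6537931, was 207 bp wide and covered 5.37%. Both began more than 2 kb inside the gene, at 2358 and 2461 bp from that start, and their summits were 25 bp apart, at 85.1% and 84.5% of the gene body. The RBMX summit held 35 tags (24.4 to 48.7) and the RPA1 summit 22 tags (13.8 to 33.3). The RBMX fold of 23.5 was above that of 67.4% of its list, and the RPA1 fold of 11.9 above that of 10.8%. ACTB and GAPDH thus shared a position late in the transcribed unit, and EEF1A1 differed from them by a peak over its start; of the 35116 promoter windows, which reach from 250 bp before to 50 bp after a start, 4 met a replicate 2 peak of RBMX and 2 one of RPA1, against 64 and 145 in replicate 1. The other windows of replicate 2 were those of RHOU, with 38 RBMX and 37 RPA1 tags. For RBMX only they also included FAM27E4, with 26 tags, and LOC399900, with 45. The LOC399900 peak also lay over FTH1, at its high-coordinate end, where RPA1 had a peak of 30 tags. ACTB and the ferritin pseudogenes are not in the promoter table, and peaks at starts missing from it are not counted.

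The ferritin pseudogenes had small RBMX peaks in their inner parts. FTH1P7 lies at 22695862 to 22696783 on chromosome 13, FTH1P10 at 17353713 to 17354631 on chromosome 5 and FTH1P11 at 81521520 to 81522427 on chromosome 8. They are 922, 919 and 908 bp long, and the 27 annotated FTH1 pseudogenes have a median length of 806 bp. The FTH1P7 peak was 281 bp wide, at 22696345 to 22696625, and covered 30.5% of the pseudogene. The FTH1P10 peak was 276 bp wide, at 17354047 to 17354322, and covered 30.03%, and the FTH1P11 peak was 204 bp wide, at 81521796 to 81521999, and covered 22.5%. All 3 lay wholly inside the pseudogene, with summits at 67.0%, 51.2% and 42.1% of its length from the low-coordinate end. The FTH1P11 peak also lay in LOC101927118, a long non-coding RNA gene; no other gene overlapped a member peak.

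The 3 summits were alike in height. FTH1P7 held 22 RBMX tags (13.8 to 33.3), and FTH1P10 and FTH1P11 held 20 each (12.2 to 30.9). Their folds were 15.001, 13.7 and 13.7, below the list median of 17.6, and 165 of the 598 RBMX summits of replicate 2 (27.6%) had 20 tags or fewer. The 4 RBMX values of ACTB and the pseudogenes are thus within counting error of one another. No RPA1 peak lay over the pseudogenes in either replicate, but the RPA1 list of replicate 2 begins at 16 tags, or 2.32 RPM. Set against that lowest listed level, the RBMX values of 3.30, 3.001 and 3.001 RPM are 1.42, 1.29 and 1.29 times as high. That level is the floor of the RPA1 list and not a count at these pseudogenes, so no counting interval is given for these ratios. The RPA1 tags at the ferritin pseudogenes are not in the list and may be lower still, so the lists do not give the size of a difference there. Of all 32 pseudogenes with an RBMX peak in replicate 2, 46.9% also had an RPA1 peak.

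**Figure D2:**
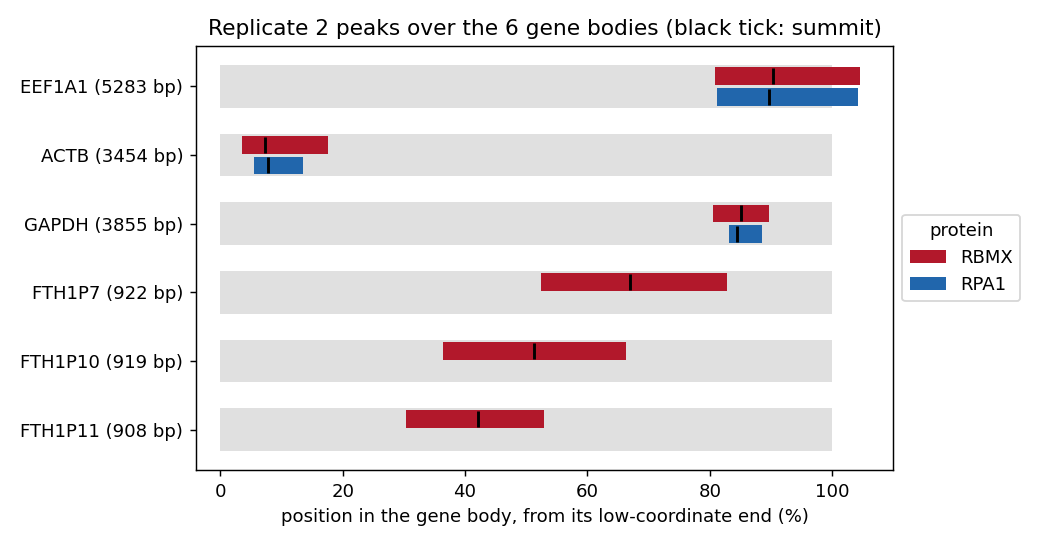
Replicate 2 peaks over the 6 gene bodies, with the position from the low-coordinate end as a percent of gene length on the horizontal axis; grey bars are gene bodies, red RBMX peaks, blue RPA1 peaks and black ticks summits. The EEF1A1 peaks run past the high end, which is its start, those of ACTB and GAPDH lie near the end transcribed last, and the pseudogene peaks lie inside and are of RBMX alone.

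The RBMX value was above the RPA1 value at each member that both proteins held, by amounts that depended on the measure. These are the values by which the members were chosen, so the ratios describe pairs of libraries and carry no test. In replicate 1 the EEF1A1 peak held 73.3 RPM of RBMX over 2226 bp and 45.3 RPM of RPA1 over 1951 bp, a ratio of 1.62 (counting interval 1.49 to 1.76) between sums over separately called regions. In replicate 2 its summit held 44.9 and 35.4 RPM, a ratio of 1.27 (1.07 to 1.51). Per kb of peak the replicate 1 ratio was 1.42. With the folds as deposited, the ratio was 1.08 in replicate 1 and 1.57 in replicate 2. At GAPDH 5.25 RPM of RBMX and 3.19 RPM of RPA1 gave a ratio of 1.65 (0.938 to 2.94), and at ACTB 3.001 and 2.76 RPM gave 1.09 (0.551 to 2.16). The last 2 intervals include 1, which does not show that the proteins were equal there. Over all pairs of overlapping RBMX and RPA1 peaks on the chromosomes, the median RPM ratio was 0.988 for 88 pairs in replicate 1 and 0.904 for 338 pairs in replicate 2. By deposited fold the medians of the same pairs were 0.9925 and 1.119. The EEF1A1 ratio by RPM was above that of 93.2% and 91.1% of these pairs. The replicate 2 ratio by RPM of GAPDH was above that of 98.5% and of ACTB above that of 80.2%. With a single library per protein in each replicate, spread between libraries could not be set beside these ratios.

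**Figure D3:**
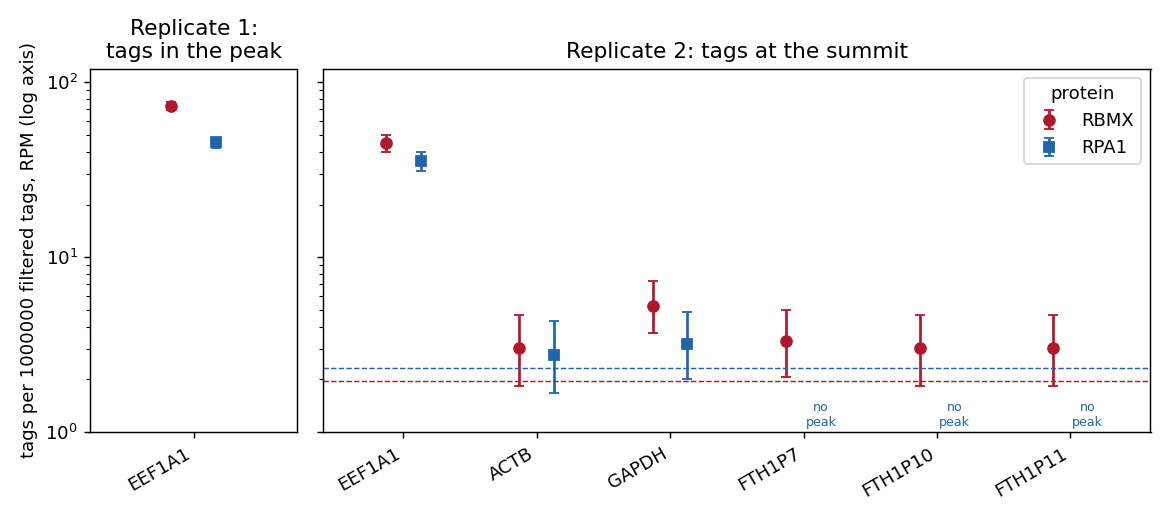
Tags per 1000000 filtered tags (RPM) on a log axis for each member, red circles RBMX and blue squares RPA1, with exact 95% Poisson intervals; the left panel gives tags in the replicate 1 peak and the right panel tags at the replicate 2 summit, where dashed lines mark the lowest value in each list. EEF1A1 stands apart from the other 5 members, whose replicate 2 values lie between 2.76 and 5.25 RPM.

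**Figure D4:**
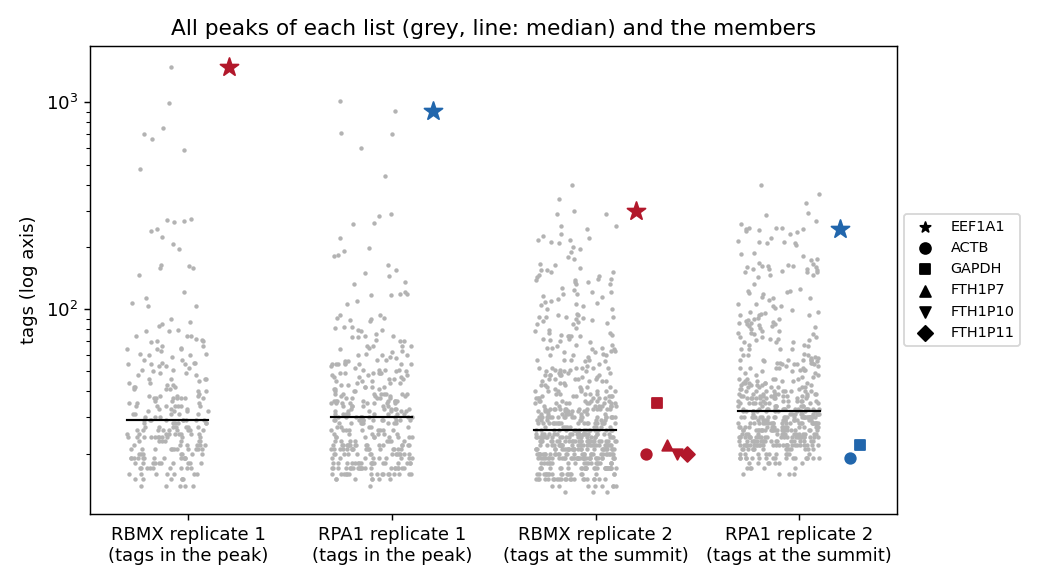
Tags of all peaks of each list on a log axis (grey points, with the median as a black line) and of the members beside them (red RBMX, blue RPA1); replicate 1 gives tags in the peak and replicate 2 tags at the summit. EEF1A1 lies at or near the top of every list, and ACTB and the pseudogenes lie below the median of theirs.

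Related genes mostly had no peak. Of 10 translation elongation factor genes, EEF1A1 alone had one in any list, and EEF2 and EEF1A2 were among those without. Of 50 EEF1A1 pseudogenes, EEF1A1P5 on chromosome 9 had a peak of both proteins in replicate 2, with 26 RBMX and 22 RPA1 tags, and these peaks also lay over SNORD141A. Of 6 actin genes only ACTB had a peak, and none of 35 beta and gamma actin pseudogenes did. Of 18 glycolysis genes, GAPDH had peaks of both proteins and PKM, which encodes pyruvate kinase, an RBMX peak of 14 tags in replicate 2. Of 65 GAPDH pseudogenes, GAPDHP1 on chromosome X had an RBMX peak of 18 tags whose summit lay 163 bp outside it; the peak also overlapped LOC105373177.

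Of the 4 ferritin genes FTH1 itself had peaks. In replicate 2 its gene body, at 61964285 to 61967634 on chromosome 11, held RBMX peaks near both ends, with 22 tags at the low-coordinate end, shared with BEST1, and 45 at the high-coordinate end, shared with LOC399900. RPA1 had a single peak there, at the high-coordinate end, with 30 tags. Of 47 ferritin heavy and light chain pseudogenes, the 3 members had a peak and the other 44 had none in any list. None of 88 ribosomal protein genes and none of 23 further genes of abundant transcripts, among them TUBA1B, HSPA8 and MALAT1, met a peak in any of the 4 lists. Over all protein-coding genes the share with an RBMX peak was 0.549% in replicate 1 and 0.141% in replicate 2, and with an RPA1 peak 0.956% and 0.0856%. Over all pseudogenes the share was 0.0890% in both lists of replicate 1, and in replicate 2 it was 0.190% for RBMX and 0.107% for RPA1. Of the 340 genes of these lists that are not members, 4 had an RBMX peak in replicate 2 (1.18%) and 2 an RPA1 peak (0.588%), and none had one in replicate 1; these shares were not tested against those of all genes.

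Likeness to other genes was taken as the summed difference in log2 of the largest fold over the lists that hold a gene. This measure does not ask whether the lists share a site within the gene. Of the 5 other genes held by all 4 lists, PTPRN2, MTND2P28 and COL23A1 were the closest to EEF1A1, at sums of 4.94, 5.50 and 5.56 over 4 lists. PTPRN2 had folds of 8.79 for RBMX and 8.41 for RPA1 in replicate 1, near those of EEF1A1, and of 29.3 and 33.1 in replicate 2, below them. COL23A1 had 8.68 and 9.36 in replicate 1 and 26.7 and 22.5 in replicate 2. MTND2P28 had 13.2 and 16.4 in replicate 1, above EEF1A1, and 47.6 and 27.0 in replicate 2, below it. Over the 2 lists of replicate 2, ACTB was most like RNA5S7, MIR3648-2 and RNA28SN3, at sums of 0.07, 0.13 and 0.20 among 59 genes. GAPDH was most like RNA28SN1, TRG-GCC1-2 and RNA5S14, at 0.13, 0.16 and 0.20. In RBMX replicate 2 alone, FTH1P7 had the same fold as the peaks of BEST1, RPLP1P4 and RPS17P16. The BEST1 peak is the one of 22 tags that also lay over FTH1, the parent gene. FTH1P10 and FTH1P11 had the same fold as the peaks of LOC101927118, PCNP and RPS18P5. The LOC101927118 peak is the FTH1P11 peak itself. Folds of small summits take few values: 30 peaks of that list share the fold of FTH1P10 and 26 that of FTH1P7. The genes named beside the pseudogenes came from 34 held by that list alone. Ties in fold were broken by symbol, so their naming does not mark a special likeness.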

How the data were processed

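Peaks were called per sample. For replicate 1, MACS 1.4.2 was run with no control, a p-value cutoff of 1e-05 and a regional background of up to 10000 bp, per the file headers. Its deposited tags are counts within the peak, its deposited score is the log10 of p multiplied by minus 10, and its deposited fold is a ratio to that background. For replicate 2, MACS2 2.2.4 was run with an input, a cutoff of 1e-12 and no local background (--nolambda), per the file headers; the deposited pileup is a signal scaled to the smaller library, p-values and q-values were deposited as −log10, and the deposited fold is a ratio to 1 genome-wide level. The input was thus not used locally at any peak, and copy number or mappability was not removed. The build was hg38 and Bowtie2 and deepTools 3.4.1 were also named, per the submitters' processing notes. The aligner of replicate 1 is not given in the sources used here.

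Pileup was divided by its scale (0.959 for RBMX, 0.681 for RPA1), which gave whole tags within 0.02 at 100% of summits. Replicate number 2 is in the labels and number 1 was given in accession order. Gene bodies, promoter sequences and biotypes came from RefSeq tables of GRCh38.p14, which hold no exons; 2 of the 6 members are in the promoter table. Intervals are exact Poisson for tags and exact conditional binomial (Clopper-Pearson) for ratios, at 95%. Overlap code was tested on simulated peaks. Python 3.11.15, pandas 2.3.3, NumPy 2.4.6, SciPy 1.17.1 and matplotlib 3.10.9 were used. The genes named are the members, genes of the lists that a peak overlaps, genes under a member peak and up to 3 genes of most like pattern per member; the promoter windows with a peak, and the genes without one, were named after their values were seen. The members and lists were chosen with earlier results of these data known. The 2 inputs were not analysed here.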

Additional observations from a re-analysis of the deposited data

How the results depend on the processing

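Which lists hold the members did not depend on requiring 50% of the peak or its summit in the gene body, or on widening the gene body by 1 kb. At a stricter threshold (−log10 p above 12 in replicate 1 and 24 in replicate 2), RPA1 replicate 2 held 1 member in place of 3. Both proteins of replicate 2 held 1, since ACTB and GAPDH were lost for RPA1. The other lists kept their counts. The cutoff of replicate 2 asked more tags of RPA1, whose pileup is scaled by 0.681, than of RBMX, scaled by 0.959. A summit of 22 tags had −log10 p of 28.4 for RBMX (FTH1P7) and 19.1 for RPA1 (GAPDH). In RBMX replicate 2, ACTB, FTH1P10 and FTH1P11 passed narrowly, at 25.1. Without replicate 1, 3 members were held by both remaining lists, and without replicate 2, 1 member. The RBMX to RPA1 ratio at EEF1A1 in replicate 1 was 1.08 by deposited fold and 1.42 per kb of peak, the latter added after the data were examined, and 1.27 without replicate 1, where replicate 2 takes its place. In replicate 2 the EEF1A1 ratio was 1.73 by pileup as deposited, which scales the 2 proteins to inputs of unequal depth, and 1.57 by deposited fold. The medians over shared peaks of replicate 2 were 1.232 by that pileup and 1.119 by fold. Relative to the median of shared peaks, the EEF1A1 ratio by RPM was 1.64 in replicate 1 and 1.4 in replicate 2. The ratios stayed above 1 at EEF1A1, ACTB and GAPDH under each ratio setting applied to them. In replicate 2 these settings rescale the same tags, upwards and by nearly the same factor at each member. A ratio above 1 by RPM could thus not be expected to fall below 1 there, and nothing is concluded from its staying above. At the stricter threshold ACTB and GAPDH had no RPA1 peak and so no ratio. The ratio per kb was taken at EEF1A1 in replicate 1 alone. The counting intervals of ACTB (0.551 to 2.16) and GAPDH (0.938 to 2.94) include 1. All genes with a peak fell from 169 to 12 in RBMX replicate 1 and from 270 to 10 in RPA1 replicate 1 at the stricter threshold. In replicate 2 that threshold took them from 112 to 91 for RBMX and from 75 to 54 for RPA1. When 50% of the peak had to lie in the gene, all genes with a peak fell from 75 to 44 in RPA1 replicate 2. The ratios set RBMX beside RPA1 of the same replicate number. Only number 2 is in the labels, and number 1 was given in accession order, so the labels do not state that pairing. No paired test was run, and no result comes from a test. The peak lists give no tags below their cutoffs, which limits what can be said of RPA1 at the ferritin pseudogenes.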
